A study of Mus musculus with 6 samples.

Results

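This account concerns 10 antioxidant enzyme genes, Sod1, Sod2, Cat, Gpx1, Gpx4, Prdx1, Prdx2, Txn1, Glrx and Hmox1, in the ventromedial hypothalamus (VMH) of mice that lack FoxO1 in this nucleus (KO) and of wild-type mice (WT). The genes were chosen by name, with earlier results of these data known. Every array probe annotated to one of them was taken, 21 probes of 45281 on the array, which name 19057 genes in all. Of these, 17 probes of 9 genes were tested among 20006 tested probes. KO and WT were each measured on 3 Illumina Mouse-6 V2 arrays, and each array carried total RNA pooled from the VMH of 3 animals, so that a replicate is a pool. The strain background of both genotypes is labelled as mixed, and age, sex and the Cre line behind the deletion are not given in the sources used here.

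These enzymes form a relay that disposes of reactive oxygen. Superoxide dismutases turn superoxide into hydrogen peroxide, and catalase splits that peroxide into water and oxygen. Glutathione peroxidases and peroxiredoxins reduce hydrogen peroxide or lipid peroxides with electrons from glutathione or thioredoxin. FoxO transcription factors are known in other cells for raising Sod2 and Cat, and NRF2 is known for raising Prdx1, Txn1 and Hmox1 through antioxidant response elements.

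A probe was tested if its detection p was under 0.05 on at least 3 of the 6 arrays. Signals below are the deposited intensities, given in the order of replicates 1, 2 and 3. Means, differences and intervals are on the log2 scale after background correction, differences are KO minus WT, and p-values come from limma, adjusted by Benjamini and Hochberg's method over all tested probes. Between 18771 and 20445 probes were detected per array, and the small number of arrays limits the precision. KO 1 stood apart from the other arrays, with a mean correlation of 0.954 with them, where the others had 0.977 to 0.981. Values without KO 1 are therefore given as well. Of the probes for the deleted gene, Foxo1, ILMN_2656498 differed by -0.65 (SE 0.24) and ILMN_2509340 by 0.34 (SE 0.35), and neither passed the test (adjusted p = 0.582 and 0.677). Each KO array was below each WT array on ILMN_2656498 only. The differences were -0.38 and 0.72 without KO 1, and -0.35 and 0.11 without background correction. Without KO 1, the KO arrays were still below the WT arrays on ILMN_2656498 and lay above them on ILMN_2509340. Where these probes lie relative to the deleted part is not given, so they do not check the genotype labels. All 8 VMH neuron markers looked up, Nr5a1 and Fezf1 among them, had a tested probe, and so had 6 of 7 markers of the neighbouring arcuate nucleus. Nr5a1 was dim, at log2 5.76 to 6.50 over the arrays. Since 11 of 13 exocrine pancreas genes had a tested probe as well, these counts do not check the dissection. In pooled tissue, fewer cells of a type and less RNA per cell cannot be told apart.

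None of the 17 tested probes passed an adjusted p of 0.05 (0 of 17 in limma, against 0.005% of all tested probes). An unadjusted p under 0.05 was reached by 3 of 17, one each of Glrx, Gpx4 and Prdx1, all higher in KO, where 3.77% of all tested probes were higher at that level. The Glrx probe among them did not follow genotype, with WT 1 at the KO level. The Prdx1 probe was dim and detected only on KO 1, KO 3 and WT 1, so it met the filter mostly through KO arrays. With 1 probe per gene, the one with the highest mean signal, the 9 genes had positive differences between 0.007 (Cat) and 0.43 (Txn1), with a median of 0.19 against 0.021 over all tested probes. KO 1 was the highest of the 6 arrays for 8 of these 9 probes, against 36.7% of all tested probes. Positive differences were seen for 52.9% of all tested probes. Without KO 1 the median was 0.072 against 0.014 over all tested probes. Of the 9 differences, 6 were then positive, against 52.8% of all tested probes. The counts of positive differences were added after the data were seen and are a description only.

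**Figure D1:**
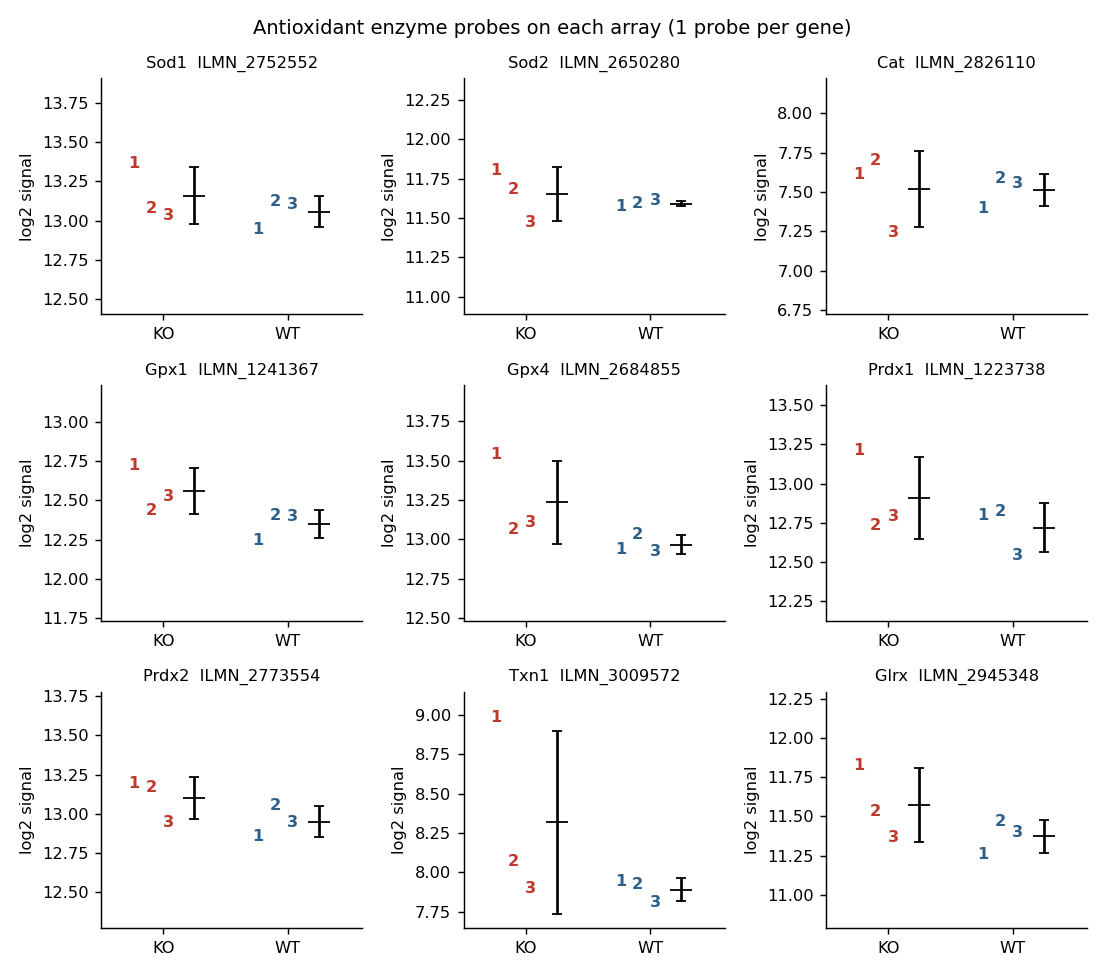
Background-corrected log2 signal of 1 probe for each of the 9 genes with a tested probe. Digits are arrays by replicate number, KO in red and WT in blue, and bars are mean ± SD (n = 3); every panel spans the same log2 range. Array 1 is the highest KO array in each panel except Cat, and the genotypes do not overlap for Gpx1 and Gpx4.

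Sod1, the cytosolic copper-zinc superoxide dismutase, had signals of 10676, 8794 and 8510.5 in KO and of 8017, 9061 and 8944.5 in WT on probe ILMN_2752552. KO 1 was the highest array, and KO 2 and KO 3 lay within the WT range. Its mean was 13.16 ± 0.18 (SD, n = 3) in the KO pools and 13.06 ± 0.10 (SD, n = 3) in the WT pools, which differ by 0.10 (95% interval -0.26 to 0.47; limma adjusted p = 0.79). Another Sod1 probe, ILMN_2581247, differed by 0.009 (SE 0.20), and the remaining one, ILMN_1236313, was not detected on any array.

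Sod2, the manganese dismutase of mitochondria and a known FoxO target elsewhere, had signals of 3705, 3416 and 2963 in KO and of 3180.3, 3213 and 3248.5 in WT on its single probe. The WT arrays lay close together and KO arrays lay on both sides of them. The difference was 0.061 (95% interval -0.29 to 0.41; limma adjusted p = 0.874), which corresponds to a KO over WT ratio between 0.817 and 1.33. Without KO 1 it was -0.015.

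Cat encodes catalase, the peroxide-splitting enzyme of peroxisomes and also a known FoxO target. Probe ILMN_2826110 had signals of 323, 335 and 278.5 in KO and of 295, 319 and 315 in WT, with KO arrays at both ends of the range. The difference was 0.007 (95% interval -0.39 to 0.40; limma adjusted p = 0.988), and its sign changed with the setting. The other Cat probe was not detected on any array. The intervals include ratios of KO over WT from 0.817 to 1.33 for Sod2 and from 0.764 to 1.32 for Cat. These data therefore do not show that either gene was unaffected.

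The glutathione peroxidases were the members whose arrays separated the genotypes. Gpx1, the abundant cytosolic peroxidase that reduces hydrogen peroxide with glutathione, had signals of 6871, 5662 and 6026 in KO and of 4976, 5555 and 5518 in WT. Each KO array was above each WT array. Its mean was 12.56 ± 0.15 (SD, n = 3) in the KO pools and 12.35 ± 0.09 (SD, n = 3) in the WT pools. The difference of 0.21 or 1.16-fold did not pass (95% interval -0.14 to 0.56; limma adjusted p = 0.603).

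Gpx4, which reduces lipid peroxides within membranes and guards cells against ferroptosis, was read by 3 tested probes that all leaned the same way. Probe ILMN_3100812 had signals of 3718, 2649 and 2374 in KO and of 1673, 2181 and 1898 in WT, with each KO array above each WT array. Its mean was 11.41 ± 0.35 (SD, n = 3) in the KO pools and 10.80 ± 0.20 (SD, n = 3) in the WT pools. The difference was 0.62 (SE 0.21) or 1.53-fold, with an unadjusted p of 0.0184 and a limma adjusted p of 0.582. Probe ILMN_2684855 had signals of 12018, 8680 and 8944.5 in KO and of 7974, 8510.5 and 7892 in WT. These genotypes did not overlap either, but KO 2 exceeded WT 2 by little, and the difference was 0.27 (SE 0.17; limma adjusted p = 0.585). Probe ILMN_3027761 was dim, with signals of 209, 187.6 and 199 in KO and of 188.3, 191.5 and 195 in WT. KO 2 was its lowest array. It differed by 0.13 (SE 0.17) with overlapping arrays, and by 0.049 without background correction. Gpx4 is known to give rise to cytosolic, mitochondrial and nuclear forms; which of them each probe reads is not given in the files used here.

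Without KO 1 the Gpx1 difference was 0.13 and those of the Gpx4 probes were 0.42 for ILMN_3100812, 0.12 for ILMN_2684855 and 0.027 for ILMN_3027761, and the first 3 of these 4 probes still had each KO array above each WT array. In all, 3 of the 17 tested probes had all KO arrays above all WT arrays, against 8.84% of tested probes, and 0 of 17 had all KO arrays below, against 6.24%. Because 2 of the 3 read the same gene, they are not independent. Without KO 1 the counts were again 3 of 17 above, against 11.5%, and 0 of 17 below, against 8.33%.

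Some marker lists of other cells also leaned one way. Over all tested probes, 52.9% had positive differences and 8.84% had each KO array above each WT array. Of 9 red blood cell genes, 5 were tested, and all 5 had positive differences, 4 with each KO array above each WT array; the summed level of the list was 16034.5 to 19342 in KO and 11762 to 13716 in WT. Slc4a1, an anion exchanger of the red cell membrane, had no tested probe. Of 9 microglial genes, all were tested and 7 had positive differences, with a summed level of 2126 to 2945 in KO and 1652 to 2218 in WT. Red cells are known to be rich in Gpx1, Prdx2, Cat and Sod1, whose brightest probes differed by 0.21, 0.15, 0.007 and 0.10. The red cell list was highest on KO 3, at a summed level of 19342. All 11 tested genes of the exocrine pancreas, a tissue outside the brain, had positive differences, with a median of 0.47 and overlapping genotypes. Where their signal in these VMH pools comes from was not tested. Of 6 tested arcuate markers 1 had a positive difference, with a median of -0.15. The part of these cells in the enzyme differences was not tested.

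**Figure D2:**
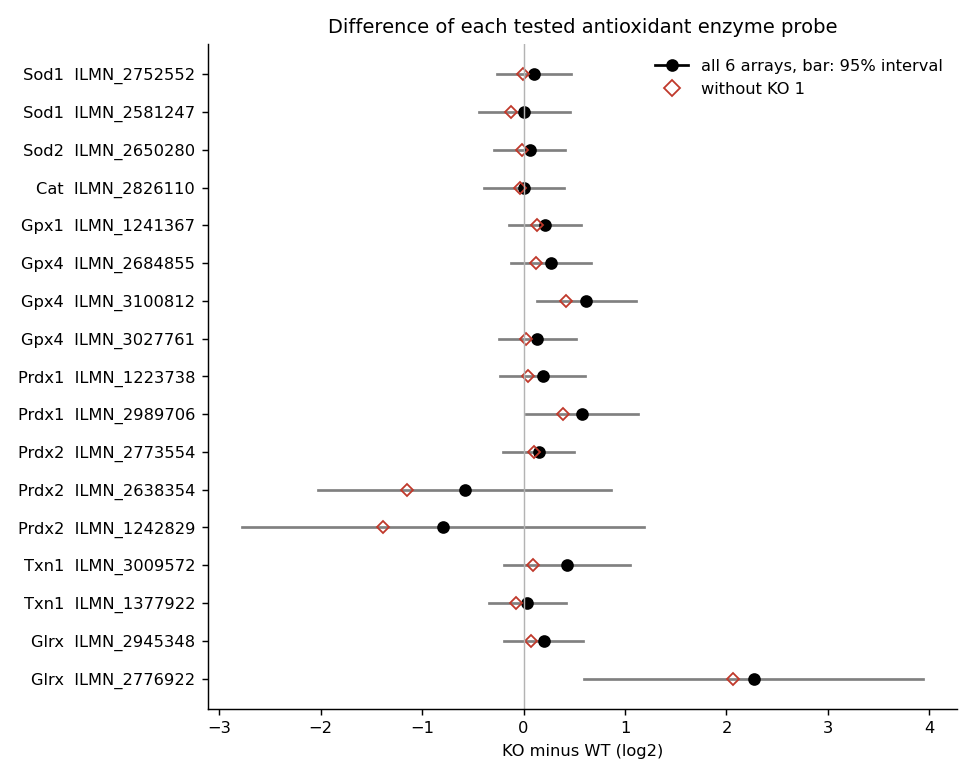
Difference KO minus WT (log2) of the 17 tested probes. Filled circles with bars are estimates over 6 arrays with 95% intervals, and open diamonds are estimates without KO 1. The intervals of one Gpx4, one Prdx1 and one Glrx probe lie above 0 before adjustment for the number of tests; for most of the other probes the diamond lies nearer to 0 than the circle.

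The peroxiredoxins remove peroxide through a reactive cysteine that thioredoxin recharges. Prdx1 had signals of 9600, 6923 and 7213 in KO and of 7249, 7356 and 6084 in WT on probe ILMN_1223738. Only KO 1 was above all WT arrays, and the difference was 0.19 (SE 0.18; limma adjusted p = 0.661), or 0.041 without KO 1. Prdx1 probe ILMN_2989706 was dim, being detected only on KO 1, KO 3 and WT 1. Its difference was 0.58 (SE 0.24), with an unadjusted p of 0.0424 and a limma adjusted p of 0.582, and it was 0.18 without background correction.

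Prdx2 was read by 3 probes that disagreed. Probe ILMN_2773554 had signals of 9489.5, 9309 and 8028 in KO and of 7543, 8621 and 8001.5 in WT, and the genotypes overlapped at a difference of 0.15 (SE 0.15; limma adjusted p = 0.675). Probe ILMN_2638354 had signals of 1459, 311 and 1056 in KO and of 1281, 838.5 and 1058 in WT. Probe ILMN_1242829 had signals of 543, 158 and 569.5 in KO and of 523, 346 and 504 in WT, and the value on KO 2 was below detection. On both of these probes KO 2 alone was low, while on ILMN_2773554 KO 2 was the second highest array.

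Their differences of -0.58 (SE 0.63) and -0.80 (SE 0.87) rest on that array and turned to 0.28 and 0.42 without KO 2. The KO 2 value of ILMN_1242829 is at background, so the size of its difference and gap depends on the background correction. Without that correction the difference was -0.30 for this probe and -0.41 for ILMN_2638354. The 6 values of these 2 probes had a Pearson correlation of 0.98 with each other, and of -0.43 (ILMN_2638354) and -0.53 (ILMN_1242829) with ILMN_2773554, as a description over 6 arrays.

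Txn1, cytosolic thioredoxin, had signals of 634, 395 and 366 in KO and of 373, 369.9 and 351 in WT on probe ILMN_3009572. KO 1 stood alone above 5 arrays that lay close together. The difference was 0.43 (SE 0.27; limma adjusted p = 0.584) and 0.092 without KO 1. The probe ILMN_1377922, detected on KO 1, WT 1 and WT 2, differed by 0.039 (SE 0.16), and ILMN_2588054 was not detected on any array.

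Glrx, glutaredoxin 1, reduces protein-glutathione disulfides in the cytosol and gave the largest difference of any tested probe, in a form that did not follow genotype. Probe ILMN_2776922 had signals of 1788, 1216 and 1235 in KO and of 1222, 256 and 254 in WT. WT 1 lay with the KO arrays, and WT 2 and WT 3 lay together at a lower level. The difference was 2.27 (SE 0.73; 95% interval 0.59 to 3.94) or 4.81-fold, ranking 1 of 20006 in size, with an unadjusted p of 0.0138 and a limma adjusted p of 0.582.

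The other Glrx probe, ILMN_2945348, did not share this step. It had signals of 3751.5, 3082.5 and 2762 in KO and of 2578, 2960 and 2820.2 in WT, and WT 2 and WT 3 lay above WT 1. Its difference was 0.20 (95% interval -0.19 to 0.59; limma adjusted p = 0.634), so that the probe's upper limit was below the estimate from ILMN_2776922. Leaving out WT 1 took the first probe past the threshold, at a difference of 3.30 (limma adjusted p = 0.0368), since only the low WT arrays then remained.

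**Figure D3:**
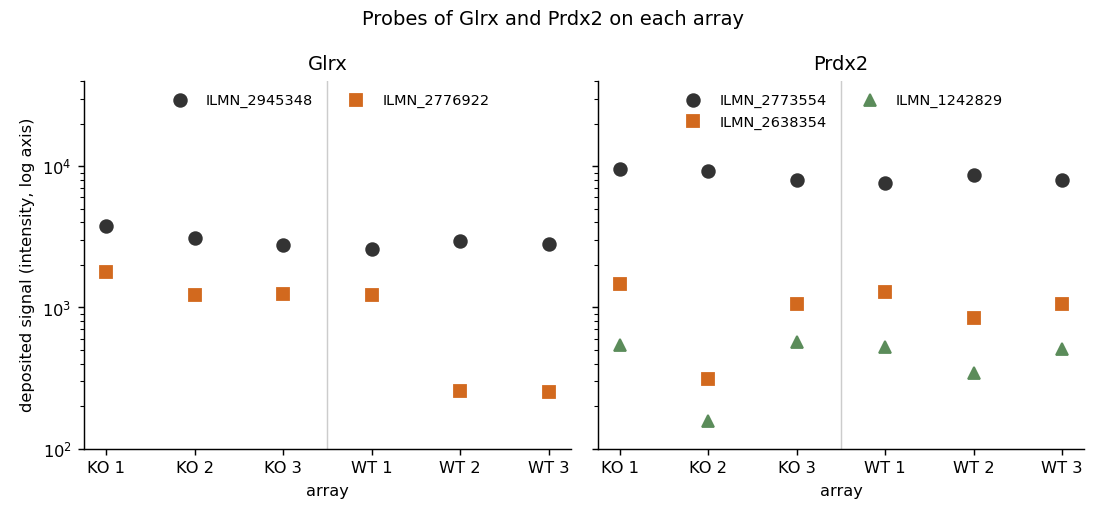
Deposited signal (log axis) of each tested probe of Glrx (left) and Prdx2 (right) on the 6 arrays, KO left of WT. Glrx probe ILMN_2776922 is at 256 and 254 on WT 2 and WT 3 and at 1216 or more on the other arrays, and Prdx2 probes ILMN_2638354 and ILMN_1242829 are low on KO 2 alone; the remaining probe of each gene shows neither step.

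Hmox1 encodes the stress-induced haem oxygenase that opens the haem ring. Its only probe had signals of 166, 169 and 153 in KO and of 153, 167 and 161 in WT and was detected on KO 2 alone. It was not tested and no level or fold can be given.

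Probes whose arrays fell into separate levels were described by the largest gap between neighbouring values when the 6 arrays are put in order. A gap of at least 0.5 log2 that made up at least 0.6 of the whole range counted as separate levels, and 4 of the 17 tested probes had it, against 12.5% of all tested probes. They were the Glrx probe (gap 3.07), the 2 Prdx2 probes (gaps 2.69 for ILMN_1242829 and 1.95 for ILMN_2638354) and the Txn1 probe (gap 0.92). The 2 Prdx2 probes read the same gene and set the same array, KO 2, apart, so they are not independent. Just outside the limits lay Gpx4 probe ILMN_2684855, with a gap of 0.43 that made up 0.70 of its range. In 11 of the 20006 tested probes the gap was larger than in the Glrx probe.

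None of the 4 steps matched the genotypes, and among the 2495 tested probes with separate levels 4 did. The step of the Txn1 probe, with KO 1 alone on the high side, was common. Another 831 probes shared it, and 1425 more had KO 1 alone on the low side. The step of the Prdx2 probes was shared by 16 probes of other genes. The step of the Glrx probe was shared by 1 probe, that of Tpmt, a thiopurine methyltransferase gene.

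**Figure D4:**
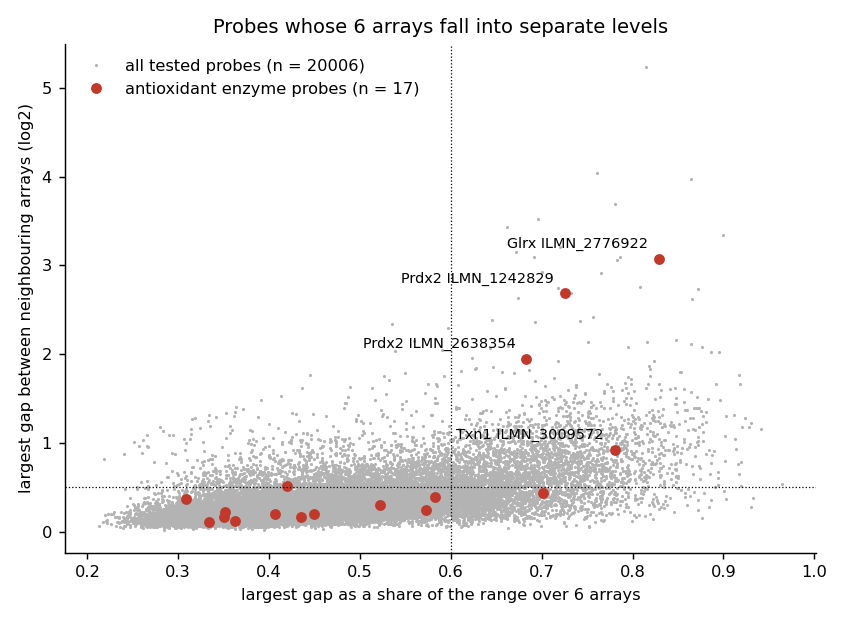
Largest gap between neighbouring arrays (log2) against the share of the 6-array range that it makes up, for all 20006 tested probes in grey and the 17 antioxidant enzyme probes in red. Dotted lines are the limits of 0.5 log2 and 0.6. The Glrx probe and the 2 Prdx2 probes lie far above most of the array, and Txn1 lies among many grey points.

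The tested probes whose 6 values ran most like those of Glrx probe ILMN_2776922 belonged to Kcnc2, Slf1, Aldoc, Zdhhc21 and Tpmt, with Pearson correlations of 0.977 (Tpmt) to 0.983 (Kcnc2) over 6 arrays. Slf1 and Tpmt lie on chromosome 13, as Glrx does. In the order of genes in the RefSeq table of GRCm38.p6, Slf1 is 25 places from Glrx and Tpmt has 727 genes between it and Glrx. Slf1 probe ILMN_2546842 had signals of 222, 185.5 and 197 in KO and of 200.3, 142 and 146 in WT. WT 2 and WT 3 were again the low arrays, and they were the arrays on which this Slf1 probe was not detected. The other Slf1 probe, ILMN_2688797, was not detected on any array. Tpmt probe ILMN_2800466 had signals of 239.8, 241 and 236 in KO and of 235, 181 and 191 in WT. Kcnc2, Aldoc and Zdhhc21 lie on chromosomes 10, 11 and 4. Aldoc probe ILMN_2613349 had signals of 250, 224.5 and 234 in KO and of 232, 192 and 197 in WT. A far brighter Aldoc probe, ILMN_3160137, had log2 values of 13.87, 14.12 and 13.82 in KO and of 13.93, 13.72 and 13.76 in WT. WT 2 and WT 3 were its lowest arrays too, but by little. Smaller steps were seen for Kcnc2, with 192, 191 and 189 in KO and 190.5, 182 and 182 in WT. Zdhhc21 had 414, 414 and 417 in KO and 414, 373 and 380 in WT.

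For the Prdx2 probes, Dynlrb2 and Morf4l2 were among the 5 most alike for both. Dynlrb2, a dynein light chain gene that shares chromosome 8 with Prdx2, had signals of 735, 413 and 703 in KO and of 693, 583 and 691.5 in WT, with KO 2 the lowest. For Txn1 probe ILMN_3009572 the 5 most alike were Fnip1, Sugct, Txndc15, Hint3 and Dpm3, with correlations of 0.997 to 0.999. Each of these 5 had KO 1 as the highest array, and none lies on the chromosome of Txn1. Correlations over 6 arrays that share a normalization describe likeness only.

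A wider list of 50 antioxidant and redox genes gave 41 with a tested probe, and with the probe of highest mean standing for each gene, 0 of 41 passed the test. Among these probes an unadjusted p under 0.05 was reached by 3 genes on the higher side and 0 on the lower side, against 3.77% and 3.8% of all tested probes. The list was chosen with earlier results of these data known, and counts of positive differences were added after the data were seen. As a description only, positive differences were seen for 33 of 41 genes, against 52.9% of all tested probes, with a median of 0.23 against 0.021. Genotypes did not overlap for 7 of them with KO above (background 8.84%) and for 1 with KO below (background 6.24%). KO 1 was the highest array for 25 of 41, against 36.7% of all tested probes. Without KO 1, 32 differences were positive, against 52.8% of all tested probes, and the median was 0.11 against 0.014.

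The 5 genes of this list with the smallest p were Gss, Glrx2, Glrx3, Hmox2 and Gpx7 (limma adjusted p = 0.582 each). Gss, the second enzyme of glutathione synthesis, had signals of 204, 189.5 and 191 in KO and of 168.5, 174.5 and 174 in WT. They differed by 0.57 (SE 0.16), while its other tested probes differed by -0.14 and 0.30. Its signals are dim, and the difference was 0.18 without background correction. Glrx2, a mitochondrial glutaredoxin, had signals of 981, 713 and 609 in KO and of 500.5, 604 and 493 in WT. The KO arrays were above the WT arrays, by 0.63 (SE 0.23), but the other Glrx2 probes differed by -0.036 (ILMN_3023749) and by -0.70 (ILMN_3096267). For ILMN_3096267 the unadjusted limma p was 0.0295, and the probes of this gene disagreed in direction.

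Glrx3, a glutaredoxin that handles iron-sulfur clusters, had signals of 739, 460.3 and 438 in KO and of 369.9, 415 and 335 in WT, differing by 0.71 (SE 0.27), with 0.11 and 0.30 on its other probes. Hmox2, the constitutive haem oxygenase, differed by 0.40 (SE 0.18) and Gpx7, a peroxidase of the endoplasmic reticulum, by 0.45 (SE 0.21; 0.25 without background correction), both with overlapping arrays. Without KO 1 these 5 genes differed by 0.25 (Gpx7) to 0.47 (Gss). Fth1 and Ftl1, the ferritin subunits that store iron, differed by 0.16 and 0.25 with each KO array above each WT array, and the other tested Fth1 probe differed by 0.047. The same separation was seen for Prdx3 and Txn2, a peroxiredoxin and a thioredoxin of mitochondria, at 0.25 and 0.32. The other tested Txn2 probe differed by 0.10 with overlapping arrays. Nfe2l1, a relative of NRF2, differed by -0.17 with each KO array below each WT array. The ferritins, Prdx3, Txn2 and Nfe2l1 were named after their values were seen.

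**Figure D5:**
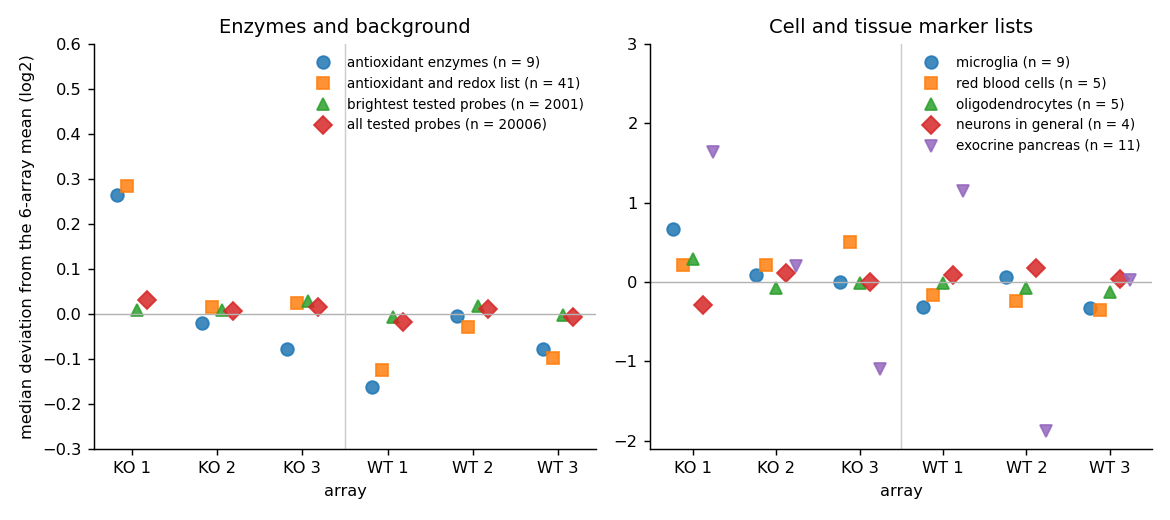
Median deviation from the 6-array mean (log2) on each array, KO left of WT: the 9 antioxidant enzymes with a tested probe, the 41 redox genes, the 2001 brightest tested probes and all tested probes (left), and marker lists (right, on a wider scale). The enzymes are at 0.27 on KO 1 and between -0.16 and -0.005 on the other arrays. KO 1 is also the highest array for exocrine pancreas, microglia and oligodendrocytes and the lowest for neurons. Red blood cell markers are highest on KO 3.

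The median deviation of the 9 enzymes was 0.27, -0.020 and -0.078 on the KO arrays and -0.16, -0.005 and -0.078 on the WT arrays. KO 1 was alone on the high side, and KO 2 and KO 3 lay within the WT range. The 2001 brightest tested probes, among them 8 of the 17 enzyme probes, stayed between -0.008 and 0.029 on each array, and its median difference was 0.006. On KO 1 microglial markers stood at 0.67, exocrine pancreas genes at 1.64, oligodendrocyte markers at 0.29 and arcuate markers at 0.19, each highest there. General neuron markers stood at -0.29, endothelial markers at -0.22 and VMH neuron markers at -0.18, each lowest there. Astrocyte markers stood at -0.0002 on KO 1. Red cell markers stood at 0.22 on KO 1, 0.21 on KO 2 and 0.51 on KO 3. On the WT arrays red cell markers stood at -0.16, -0.24 and -0.35. Exocrine pancreas genes were also high on WT 1, at 1.15, where the enzymes were lowest. The summed level of 11 exocrine pancreas genes ranged from 13812 to 68017 in KO and from 9487 to 52130 in WT. The part of these cells in the enzyme values of KO 1 was not tested.

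Promoter windows in the RefSeq table of GRCm38.p6 were read for 9 of the 10 genes, all but Hmox1, over the 250 bases before each start. The FoxO letters GTAAACA, on either strand, were in 0 of these 9 genes and in 3.54% of all genes in the table. The antioxidant response element TGACNNNGC, on either strand, was in 2 of the 9, Prdx1 and Sod1, and in 11.5% of all genes. These stretches are shown because they hold the only matches among the members, with the matched letters, read on the strand opposite to the element, in capitals and 25 bases on each side in lower case.
Prdx1: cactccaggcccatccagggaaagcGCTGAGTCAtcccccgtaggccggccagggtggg
Sod1: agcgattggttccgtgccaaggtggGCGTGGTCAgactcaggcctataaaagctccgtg
The Prdx1 stretch is chr4:116685441-116685499 on the plus strand, its match 133 to 125 bases before the start, and the Sod1 stretch is chr16:90220681-90220739 on the plus strand, its match 56 to 48 bases before the start. The differences of these 2 genes, 0.19 and 0.10, lay within the range of the 7 others. A match of letters is a description, and its absence from this window says nothing about binding elsewhere.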

How the data were processed

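RNA from 6 VMH pools, 3 KO and 3 WT, was labelled with biotin and hybridised to Illumina Mouse-6 V2 BeadChips, per the labels' protocols. The submitters' processing notes name Partek (Partek Genomics Suite 6.5 in the design text), and how they normalized is not stated in either. Per the file headers, the deposited signals are linear intensity values, each with a detection p-value. Its intensities were already quantile-normalized by the authors, since sorted values differ by at most 0.4 between arrays. The authors' deposited value table equals the log2 of these signals within 5e-05, uncentred, with column medians of 7.30 or 7.31.

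Computed here, with limma 3.58.1 in R 4.3.3: neqc (background from the detection p, offset 16, quantile normalization, log2), then lmFit and eBayes with no covariates, two-sided, at 0.05 after Benjamini-Hochberg adjustment. What the detection p is set against is not stated. Background correction widens differences of dim probes. Of all probes 34885 had 1 symbol, 18 had several and 10378 had none listed; symbols were updated through gene identifiers, which matched for 34807.

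The members and lists were chosen with earlier results of these data known. Named were all member and Foxo1 probes, the 5 redox genes with the smallest p, and the 5 probes most alike to each member probe with separate levels. The fit was tested on simulated data. Alternatives were other background corrections, normalizations and filters, the authors' log2 values, a variance trend with intensity, array weights, a block for the replicate number and leaving out each array.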

Additional observations from a re-analysis of the deposited data

How the results depend on the processing

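Of the 17 probe differences, 10 kept their sign in each of up to 16 settings. The sign turned for Cat (-0.14 with array weights, -0.041 with cyclic loess), Sod1 ILMN_2752552 (-0.0042 with array weights), Sod1 ILMN_2581247 (-0.038 with cyclic loess), Sod2 (-0.050 with array weights) and Txn1 ILMN_1377922 (-0.014 with array weights). Over the arrays left out in turn, differences ran from -0.084 to 0.15 for Cat, -0.12 to 0.19 for Sod1 ILMN_2581247, -0.0017 to 0.16 for Sod1 ILMN_2752552, -0.015 to 0.15 for Sod2, -0.070 to 0.11 for Txn1 ILMN_1377922, -1.43 to 0.42 for Prdx2 ILMN_1242829 and -1.14 to 0.28 for Prdx2 ILMN_2638354. The cause was not tested, except that KO 2 sets the Prdx2 values.

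The count of called probes, 1 over all tested probes, was 0 with cyclic loess, an intensity trend, no background correction, an offset of 50, no filter, the strict filter and the replicate block, 0 to 1 with an array left out, and 1516 at an unadjusted p under 0.05. The count of called enzyme probes was 3 at an unadjusted p and 0 to 1 with an array left out. The count with separated genotypes was 3 to 8 with an array left out, 8 without KO 3, 7 without KO 2 and 5 without WT 1 of 17, where 31.9%, 34.8% and 24.5% of all tested probes were separated in either direction, against 15.1% with all arrays. Counts of positive differences, added after seeing the data, were 6 to 9 of 9 enzymes and 29 to 33 of 41 redox genes. Deviations of same-numbered samples correlated at 0.15 (number 1), 0.004 (number 2) and 0.40 (number 3). With the other WT samples, KO 1 correlated at 0.10 and -0.29 and KO 3 at -0.20 and -0.15. KO 2 correlated little with any WT sample, so these values do not settle whether the numbers pair the samples. The main fit did not pair them, and the block called no enzyme probe. With the block, the unadjusted limma p was 0.0014 for Glrx ILMN_2776922, 0.0102 for Prdx1 ILMN_2989706 and 0.0255 for Gpx4 ILMN_3100812. In the main fit these were 0.0138, 0.0424 and 0.0184.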
